A study of Mus musculus with 4 samples.

Results

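The genes described are 6 members of the S100-fused family, namely Flg, Flg2, Hrnr, Rptn, Tchh and Tchhl1, measured in mouse ear skin that did or did not receive imiquimod (IMQ). The members were taken by gene symbol from the array's platform annotation, using probe sets listed with a single symbol and, per gene, the one whose mean over the 4 arrays was highest. Of the 6 members, 5 were found among 19938 named genes, each with 1 probe set; Flg is not listed with a probe set of its own and its level was not analysed here. RNA came from whole ears of female mice aged 8 weeks, on Affymetrix Mouse Gene 1.0 ST arrays. The 4 groups were Traf6EKO mice (an epithelial knockout of Traf6, here EKO) with IMQ, Traf6EKO mice without IMQ, Traf6f/f mice (floxed, here f/f) with IMQ, and Traf6f/f mice without IMQ. IMQ activates TLR7 and causes psoriasis-like inflammation in mouse skin; it was given as 10 mg of cream per day on the ear for 2 days. The driver of the deletion is not stated in the sources used here. TRAF6 carries signals from Toll-like, IL-1 and IL-17 receptors to NF-kB and MAP kinases.

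S100-fused proteins begin with an S100-like calcium-binding domain, which is followed by long stretches of repeats. Profilaggrin, filaggrin-2 and hornerin are stored in granules of the upper epidermis, where filaggrin is cut into units that bundle keratin filaments and is then broken down to amino acids that hold water in the cornified layer. Repetin is a precursor of the cornified envelope in mouse epidermis, and trichohyalin hardens the inner root sheath and medulla of the hair follicle after deimination and cross-linking. The genes lie side by side on chromosome 3 in the epidermal differentiation complex. In RefSeq's order for assembly GRCm38.p6, Crnn (cornulin, a relative that is not a member) comes first, followed by Flg2, Flg, Hrnr, Rptn, Tchh and Tchhl1.

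RefSeq's promoter table held all 6 members, and the bases before each start were searched on both strands for 5 motifs. The AP-1 motif was searched in a loosened form, TGANTCA with any base in the middle, which reads the same on both strands. This form was found in the 250 bases before 4 of the 6 starts (Flg, Flg2, Rptn and Tchhl1), against 6.75% of 32841 windows of that length. It also stood before Crnn. The middle base was A or T in each match, so the stricter form with C or G there was not matched. The windows around the matches are shown because the matches lay near each other relative to the start, from position -103 (Flg) to -63 (Flg2). Capitals mark the AP-1 match; all windows are on the plus strand of GRCm38.p6, 5′ to 3′, at chr3:93197190-93197235 (Flg2), chr3:93273429-93273474 (Flg), chr3:93393589-93393634 (Rptn), chr3:93468653-93468698 (Tchhl1) and chr3:93144679-93144724 (Crnn).
Flg2: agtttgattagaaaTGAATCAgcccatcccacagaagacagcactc
Flg: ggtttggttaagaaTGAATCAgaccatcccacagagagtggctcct
Rptn: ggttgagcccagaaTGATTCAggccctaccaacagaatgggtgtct
Tchhl1: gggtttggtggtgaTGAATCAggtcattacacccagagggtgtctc
Crnn: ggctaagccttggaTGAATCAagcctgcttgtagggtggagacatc
Set on the match without gaps, Flg and Flg2 had the same letter at 33 of 46 positions (71.7%), and the other pairs at 41.3% to 60.9%. The windows were chosen for holding the match and its letters are counted, so part of this identity was fixed in advance. The share of letters that unrelated windows would have in common was not computed. The Flg start is that of a predicted transcript, and a match is a description of letters, not a bound site.

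The upstream bases of Rptn and Tchh are given in full because these members had the widest ranges over the arrays. The Rptn window at chr3:93393449-93393698 and the Tchh window at chr3:93442080-93442329 are on the plus strand of GRCm38.p6, 5′ to 3′, with AP-1 and TATAA matches in capitals.
Rptn: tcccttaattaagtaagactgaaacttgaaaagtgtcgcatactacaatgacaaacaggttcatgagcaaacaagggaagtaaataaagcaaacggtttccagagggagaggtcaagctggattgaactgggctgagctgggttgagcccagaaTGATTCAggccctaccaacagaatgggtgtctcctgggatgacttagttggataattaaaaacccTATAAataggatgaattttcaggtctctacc
Tchh: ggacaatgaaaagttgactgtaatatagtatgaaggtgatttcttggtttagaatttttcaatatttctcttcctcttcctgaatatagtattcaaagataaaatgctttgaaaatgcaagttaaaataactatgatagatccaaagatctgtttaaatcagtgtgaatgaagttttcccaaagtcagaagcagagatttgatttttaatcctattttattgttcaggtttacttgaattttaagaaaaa
The letters TATAA occurred before 5 members (Flg, Flg2, Hrnr, Rptn and Tchhl1) and in 22.8% of all windows. On the plus strand they began at -53 in Flg, -24 in Flg2, -31 in Hrnr and -31 in Rptn, but at -238 in Tchhl1. The GRHL motif AACCNGTT matched in Rptn alone among the members and in 1.79% of all windows. The STAT motif TTCNNNGAA (7.02% of windows) and the kappaB motif (3.9%) matched in 0 members, and the Tchh window held none of the 5 motifs.

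Each group is 1 array, so no value has a replicate error, and differences between single arrays carry no p-value. The series' design text gives n = 2, and whether 2 mice were pooled per array is not stated in the sources used here. Values are RMA levels on a log2 scale, as deposited, and levels of different genes are not set against each other because their probes differ. Array medians lay between 6.52 and 6.57, and the arrays correlated at 0.981 to 0.995 across probe sets. The median of all named genes, 6.93 to 6.98 by array, served as a floor below which signal approaches background. A gene was counted in a comparison when it reached the floor on at least 1 of its arrays and differed by at least 1 (2-fold). The targeted gene, Traf6, was no lower on arrays labelled EKO by its 1 probe set, at 9.35 in EKO against 9.30 in f/f skin with IMQ, and at 9.65 in EKO against 9.51 in f/f skin without it. Whether its probes lie in the deleted part is not stated in the sources used here, so EKO stands for the label. In whole ears, fewer cells of a type and less RNA per cell cannot be told apart.

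The members did not move together over the arrays. Rptn was far higher with IMQ in both genotypes, Hrnr was slightly higher with IMQ and slightly higher in EKO, and Flg2 was lower on the f/f IMQ array alone. Tchh and Tchhl1 were lower with IMQ in f/f skin but higher with IMQ in EKO skin. In EKO skin 2 of 5 members were higher with IMQ by 2-fold or more and 0 lower by as much, where 0.671% of 10285 genes were at least 2-fold higher and 0.0972% lower. In f/f skin 1 of 5 was higher and 1 lower by that much, where 3.82% of 10548 genes were higher and 2.63% lower. Rptn was among the members counted as higher in each genotype. It passed the floor there through the IMQ arrays alone, so these counts are no support for its difference. The median difference of the 5 members was 0.45 in EKO and -0.69 in f/f, beside -0.01 and 0.01 over all genes counted in the same comparisons.

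**Figure D1:**
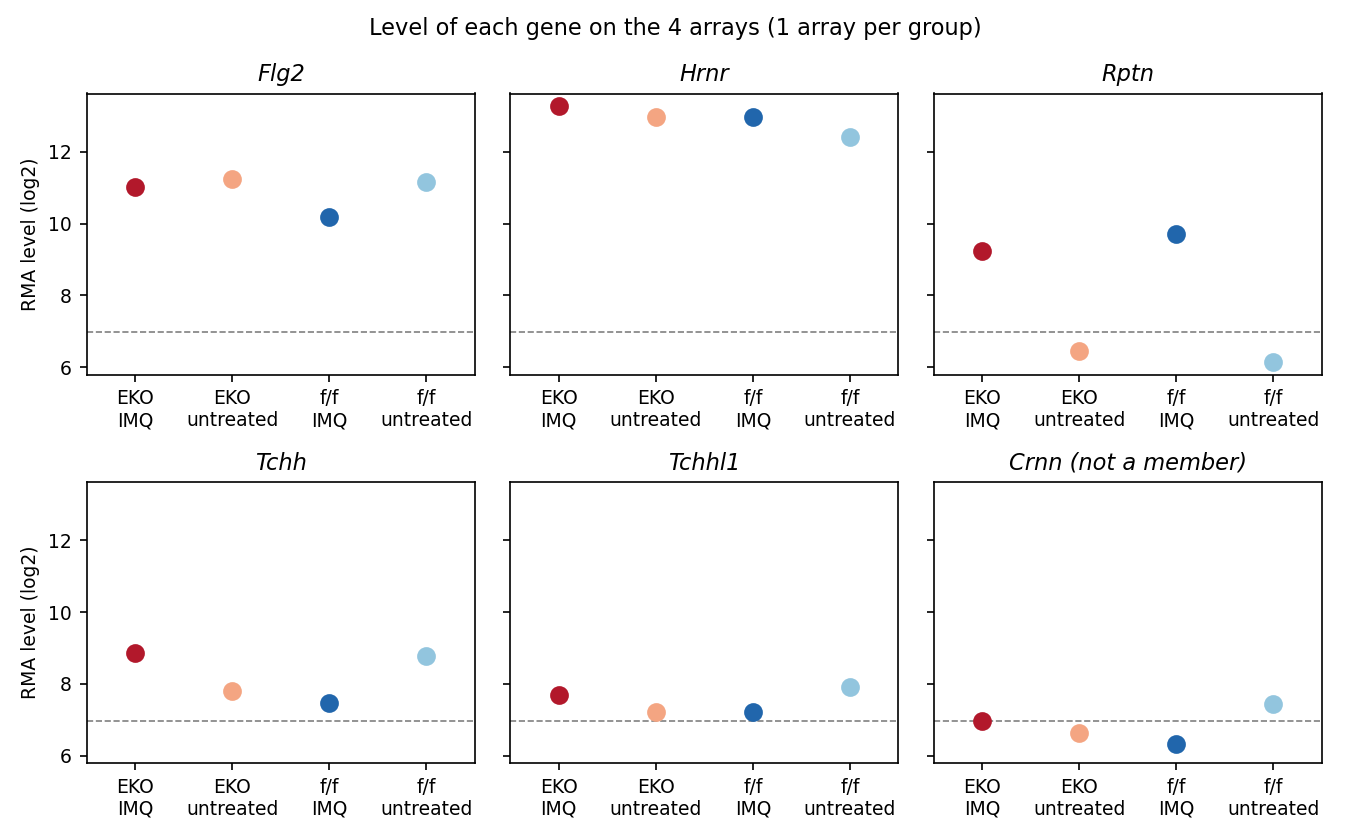
RMA level (log2, vertical axis) of the 5 measured members and of Crnn on the 4 arrays, 1 point per array, with the floor of 6.98 dashed. Rptn stands above the floor on the 2 IMQ arrays only, while Tchh is highest on the EKO IMQ (8.86) and f/f untreated (8.78) arrays.

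Repetin, the cornified envelope precursor, had the largest IMQ difference of the members. Rptn stood at 9.24 with IMQ and 6.44 without it in EKO skin, and at 9.71 with IMQ and 6.15 without it in f/f skin. Both IMQ arrays lay above both untreated arrays, and the genotypes differed far less than the treatments. The IMQ difference was 2.80 in EKO (6.96-fold), where 5 of 10285 genes, Rptn included, were at least as high. It was 3.56 in f/f (11.8-fold), where 25 of 10548 genes were at least as high. The EKO difference was 78.7% of the f/f difference on the log2 scale. Both untreated levels were below the floor, so the folds and the 78.7% are imprecise. Rptn passed the floor in these comparisons only through the IMQ arrays, where it was high, so its ranks are no support for the difference. With IMQ, Rptn was lower in EKO than in f/f by 0.47, and the untreated arrays, at 0.29 higher in EKO, were not compared because neither reached the floor.

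The genes whose levels over the 4 arrays, centred on each gene's mean, lay closest to Rptn were the wound keratin Krt6a (root mean square distance 0.19, log2), the cysteine protease inhibitor Stfa3 (0.19), the lactoperoxidase gene Lpo (0.24), the wound keratin Krt6b (0.25) and 2610528A11Rik (0.27). Lpo, like Rptn, reached the floor on the IMQ arrays only, and Stfa3 lay below it on the f/f untreated array, so their closeness is no support for a link. All 4 wound keratins, which keratinocytes make after injury or in psoriasis, were higher with IMQ in both genotypes. Their median difference was 2.58 in EKO, where 3 of 4 passed 2-fold, and 3.64 in f/f, where 4 of 4 did. Krt6a stood at 11.13 with IMQ and 8.32 without it in EKO skin, and at 12.05 with IMQ and 8.20 without it in f/f skin. Neutrophil markers also moved with IMQ: the log2 of their summed level was 9.74 with IMQ and 8.71 without it in EKO, and 12.52 with IMQ and 8.45 without it in f/f, with 5 of 6 higher in EKO and 6 of 6 in f/f. In EKO only S100a8 (1.36), S100a9 (1.37) and Cxcr2 (1.05) reached the floor, the first pair being made by keratinocytes as well, while Csf3r was at 0.22, Mmp8 at 0.19 and Ly6g at -0.15. Ly6g and Mmp8 lay below the floor on every array. The part of neutrophils in the Rptn difference was not tested.

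**Figure D2:**
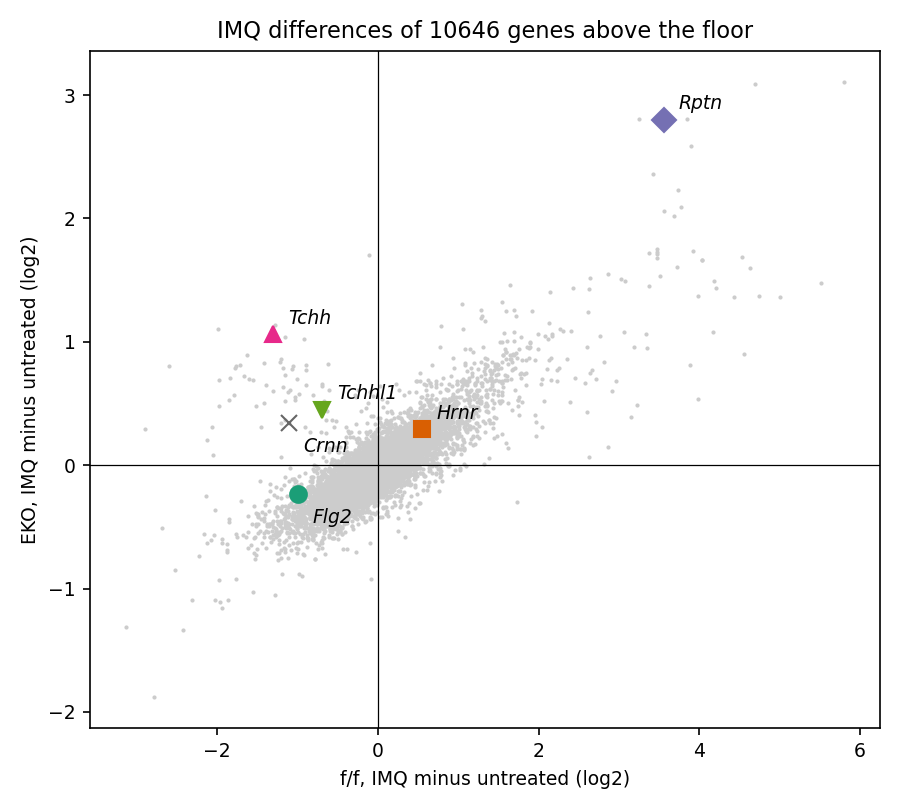
IMQ minus untreated (log2) in f/f skin (horizontal axis) and in EKO skin (vertical axis) for 10646 genes at or above the floor on 1 or more arrays (grey), with the 5 members and Crnn named. Rptn lies at the upper right (3.56 and 2.80), while Tchh, Tchhl1 and Crnn lie in the upper left part, lower with IMQ in f/f and higher in EKO.

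Hornerin, a repeat protein of the upper epidermis and its cornified envelope, differed little between arrays. Hrnr stood at 13.27 with IMQ and 12.97 without it in EKO skin, and at 12.96 with IMQ and 12.41 without it in f/f skin. The EKO IMQ array was highest and the f/f untreated array lowest, with the other arrays nearly level. The IMQ difference was 0.29 in EKO, where 8.53% of genes were at least as high, and 0.55 in f/f, where 11.3% were. EKO was higher than f/f by 0.31 with IMQ (8.61% of genes at least as high) and by 0.56 without it, where 82 of 10200 genes were at least as high. These levels approach the highest value of any probe set, 13.8, where signal differences may be compressed; this was not tested.

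Filaggrin-2, which has filaggrin-like repeats, was lower with IMQ in f/f skin. Flg2 stood at 11.02 with IMQ and 11.25 without it in EKO skin, and at 10.18 with IMQ and 11.17 without it in f/f skin. The f/f IMQ array was apart from the other 3, which lay within 0.23 of each other. The IMQ difference was -0.23 in EKO, where 15.1% of genes were at least as low, and -0.99 in f/f, where 2.68% were. The f/f value lay just short of the 2-fold threshold and passed it after cyclic loess (-1.07) or quantile normalization (-1.08). With IMQ, Flg2 was 1.80-fold higher in EKO than in f/f, a difference of 0.84 that 71 of 10282 genes reached or exceeded, and without IMQ it was higher in EKO by 0.08.

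The 5 genes closest to Flg2 over the arrays were Ache (acetylcholinesterase, distance 0.02), the carnitine and ergothioneine transporter gene Slc22a4 (0.02), the circadian output gene Dbp (0.03), the muscle myosin gene Myh2 (0.03) and the epoxide hydrolase gene Ephx1 (0.04). Ache lay below the floor on the f/f IMQ array. Markers of other ear tissues were lower on the f/f IMQ array too. The log2 of the summed level of 6 skeletal muscle genes was 13.61 with IMQ and 13.88 without it in EKO, and 13.18 with IMQ and 14.04 without it in f/f, with 6 of 6 lower in each genotype. For 5 adipocyte genes it was 12.01 with IMQ and 12.45 without it in EKO, and 11.58 with IMQ and 13.04 without it in f/f, again with 5 of 5 lower in each. The 7 epidermis markers summed to 15.23 with IMQ and 15.06 without it in EKO, and to 15.22 with IMQ and 14.79 without it in f/f. The part of these shifts in the Flg2 difference was not tested.

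Trichohyalin, the structural protein of the inner root sheath, was lower with IMQ in f/f skin and higher with IMQ in EKO skin. Tchh stood at 8.86 with IMQ and 7.80 without it in EKO skin, and at 7.48 with IMQ and 8.78 without it in f/f skin. The EKO IMQ and f/f untreated arrays were high, and the EKO untreated and f/f IMQ arrays were low. The IMQ difference was 1.06 in EKO (2.08-fold higher), where 59 of 10285 genes were at least as high, and -1.30 in f/f (2.47-fold lower), where 110 of 10548 were at least as low. Tchh was higher in EKO than in f/f by 1.39 with IMQ (2.61-fold) and lower by 0.98 without it (1.97-fold lower). Without IMQ, 35 of 10200 genes, Tchh included, were at least as low.

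Tchhl1, a trichohyalin-like gene, was high and low on the same arrays in a smaller range. Its level was 7.68 with IMQ and 7.23 without it in EKO skin, and 7.23 with IMQ and 7.92 without it in f/f skin. The f/f untreated array was highest, followed by the EKO IMQ array, and the remaining arrays were level. Its IMQ differences were 0.45 (EKO) and -0.69 (f/f), and EKO was higher by 0.45 with IMQ and lower by 0.69 without it. Crnn, whose product cornulin is found in upper layers of squamous epithelium, was at 6.98 with IMQ and 6.64 without it in EKO skin, and at 6.34 with IMQ and 7.45 without it in f/f skin. It was thus 2.16-fold lower with IMQ in f/f (-1.11) and 0.34 higher with IMQ in EKO, and it reached the floor on the EKO IMQ and f/f untreated arrays only.

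The genes closest to Tchh over the arrays were hair genes: Krtap21-1 (distance 0.08), the inner root sheath keratins Krt71 (0.08) and Krt27 (0.09), the hair keratin Krt86 (0.09) and Krtap1-5 (0.15). Krtap21-1 and Krtap1-5 reached the floor only on the EKO IMQ and f/f untreated arrays, where Tchh was high, so their closeness is no support for a link. Krt86 lay below the floor on the f/f IMQ array. Each distance rests on 4 values and was picked as smallest among 10646 genes. Tchhl1 stood at rank 43 (distance 0.35) by closeness to Tchh among genes at or above the floor on any array. Of 8 inner root sheath keratins, 8 were higher with IMQ in EKO (median 0.73) and 8 were lower with IMQ in f/f (median -1.18). The log2 of their summed level was 11.23 with IMQ and 10.53 without it in EKO, and 10.05 with IMQ and 11.31 without it in f/f. Krt71 stood at 9.72 with IMQ and 8.88 without it in EKO skin, and at 8.46 with IMQ and 9.68 without it in f/f skin. Krt26, Krt28 and Krt74 lay below the floor on every array. Of the 5 that reached it, 5 were higher with IMQ in EKO (median 0.77), where 47.1% of all genes were higher. In f/f all 5 were lower (median -1.22), where 50.6% of all genes were higher. In EKO 0 of the 5 passed 2-fold, and in f/f 4 did so as lower, where 2.63% of all genes did.

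Among hair shaft keratins, 8 of the 8 above the floor were higher with IMQ in EKO (median 0.57), 0 of them by 2-fold. In f/f 6 of 7 were lower (median -0.67), 2 of them by 2-fold, and Krt84 was higher by 0.88. Krt84 reached the floor on the IMQ arrays only, at 7.03 in EKO and 6.97 in f/f, so this size is imprecise. Krt32, Krt35 and Krt36 lay below the floor on every array. Regulators of the hair matrix went both ways: Foxn1 was higher with IMQ by 0.31 in EKO and 0.73 in f/f, and Foxq1 was lower by 0.32 in EKO and 0.61 in f/f. Lef1, Hoxc13 and Shh lay below the floor on every array. The amount of hair follicle tissue per ear was not measured, and its part in the Tchh and Tchhl1 differences was not tested.

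**Figure D3:**
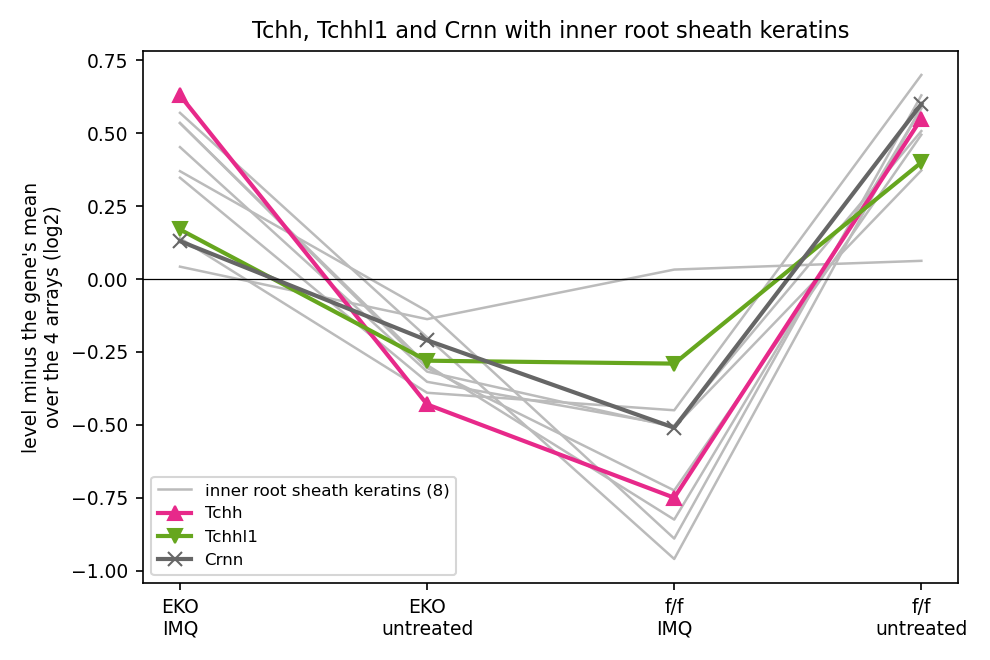
Level minus the gene's own mean over the 4 arrays (log2, vertical axis) for Tchh, Tchhl1, Crnn and the 8 inner root sheath keratins (grey); lines only join values of a gene. Tchh and most of the keratins are high on the EKO IMQ and f/f untreated arrays and low on the other arrays.

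Between the genotypes under IMQ, 1 of 5 members (Tchh) was higher in EKO than in f/f by 2-fold or more and 0 were lower by as much, where 0.418% of 10282 genes were higher and 0.875% lower. Without IMQ, 0 of the 4 members above the floor reached 2-fold in either direction, where 0.0686% of 10200 genes were higher and 0.324% lower. For the difference of the IMQ differences, EKO minus f/f, 2 of 5 members were at least 2-fold higher and 0 lower, where 1.06% of 10646 genes were higher and 1.18% lower. The members past that threshold were Tchh (2.36) and Tchhl1 (1.14), and Crnn stood at 1.45. Flg2 was at 0.77, Hrnr at -0.25 and Rptn at -0.76 in this measure. The Rptn value includes its untreated levels, which were below the floor in both genotypes, so it is imprecise. Each array enters a treatment and a genotype comparison, so these values are not independent of each other.

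**Figure D4:**
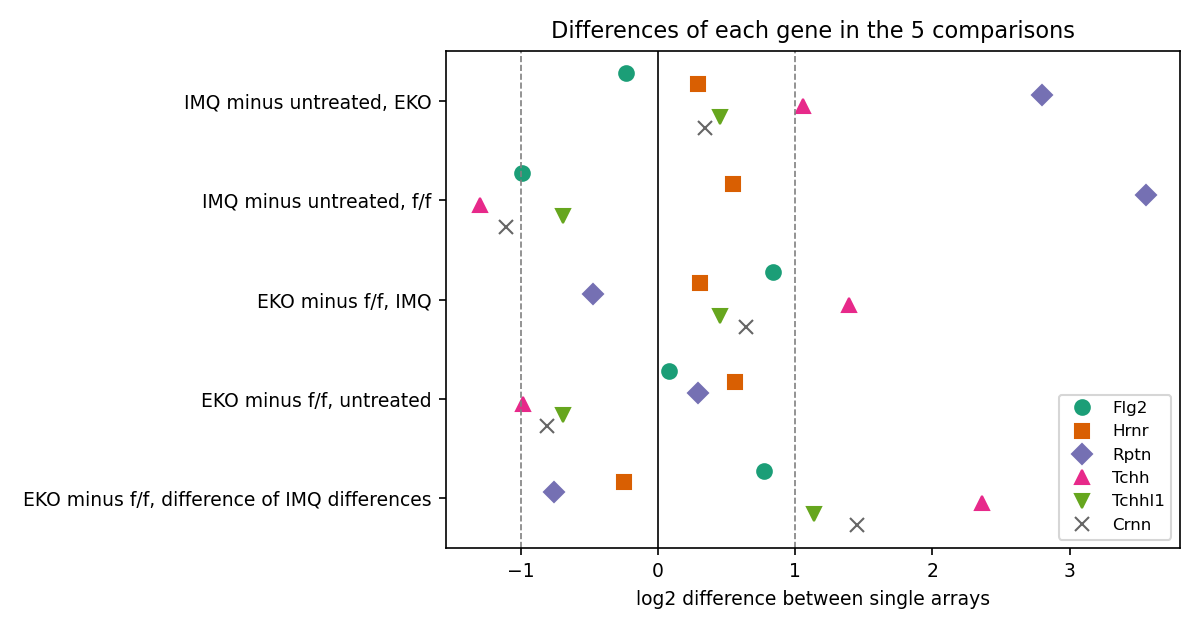
Log2 differences between single arrays (horizontal axis) of the 5 members and Crnn in the 5 comparisons (rows), with dashed lines at 2-fold. Rptn leads both IMQ comparisons, and Tchh changes side between the EKO and f/f rows.

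The IMQ effect averaged over genotypes, and the genotype effect averaged over treatments, were fitted with limma across 10646 genes, 2 arrays per level, where 1 residual degree of freedom weighs the effect against the genotype-by-IMQ difference rather than against like arrays. With Benjamini-Hochberg adjustment over all genes, 0 of 5 members and 0% of genes passed 0.05 for IMQ, although 26.4% of genes had an unadjusted limma p under 0.05. For Rptn the averaged IMQ effect was 3.18 ± 0.21 (SE), with a limma p of 9.45e-05 and an adjusted p of 0.162, and it was higher with IMQ in both genotypes. Rptn entered this fit only through the 2 IMQ arrays, where it was high, and its untreated levels were below the floor, so this p and SE are no support for the difference. For Hrnr the effect was 0.42 ± 0.09 (SE), with an adjusted p of 0.162 in limma. For Flg2 it was -0.61 ± 0.21 (SE), with an adjusted p of 0.184 in limma. For Tchh and Tchhl1, whose IMQ differences had opposite signs, it was -0.12 for each (SE 0.59 and 0.30). For genotype, 0 of 5 members and 0% of genes passed, with 3.23% of genes under an unadjusted limma p of 0.05. Hrnr was 0.43 ± 0.09 (SE) higher in EKO, with an adjusted p of 0.999 in limma.

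Of 15 genes of filaggrin processing and breakdown (14 enzymes and the protease inhibitor Spink5), 13 reached the floor. In EKO 10 of these 13 were higher with IMQ (median 0.26) and 0 passed 2-fold, where 47.1% of all genes were higher. In f/f 9 were higher and 3 lower, with Spink5 at 0.00 (median 0.56), where 50.6% of all genes were higher; 2 passed 2-fold as higher and 1 as lower. Casp14, a protease needed for filaggrin breakdown, stood at 10.84 with IMQ and 9.90 without it in EKO skin, and at 10.52 with IMQ and 8.94 without it in f/f skin. Blmh, which trims filaggrin peptides to amino acids, was higher with IMQ by 0.69 in EKO and by 1.40 in f/f. Of the 4 deiminases, Padi1 and Padi4 lay below the floor on every array. Padi2 was lower with IMQ by 0.11 in EKO and by 1.04 in f/f, and Padi3, which acts on trichohyalin, was higher by 0.26 in EKO and lower by 0.36 in f/f.

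Of the transglutaminases, some cross-link these proteins into the cornified envelope and hair sheath. With IMQ, 3 of 4 transglutaminase genes were higher in EKO (median 0.37) and 4 of 4 in f/f (median 1.27). The exception in EKO was Tgm2, at -0.14, which stood at 0.16 in f/f. In EKO 0 were at least 2-fold higher, where 0.671% of all genes were, and in f/f 3 were, where 3.82% of all genes were. Tgm3, which cross-links trichohyalin, stood at 9.87 with IMQ and 9.36 without it in EKO skin, and at 10.52 with IMQ and 8.91 without it in f/f skin. Its direction in f/f was thus opposite to that of Tchh. Among 14 cornified layer partners, 11 were higher with IMQ in each genotype (medians 0.12 in EKO and 0.16 in f/f), Lor (loricrin) being at 0.02 in EKO and -0.18 in f/f and Krt77 at -0.29 in EKO and -0.94 in f/f. Untreated, 14 of 14 of these were higher in EKO than in f/f (median 0.18), where 55.1% of all genes were higher (median 0.02). Markers of ear tissues differed between the same arrays: epidermis markers were higher in EKO in 7 of 7 (median 0.26), adipocyte genes lower in 5 of 5 (median -0.56) and muscle genes lower in 6 of 6 (median -0.16). Krt1 and Krt10 stand in both the epidermis and the cornified layer lists, so the counts of these lists overlap. The part of the tissue markers in this difference was not tested. Of 17 transcription regulators of late differentiation, 11 were higher with IMQ in EKO, 1 (Rora) being at 0.00, and 11 in f/f, with Ovol1 at 0.40 in EKO and 1.11 in f/f, and Ahr, a receptor known to raise filaggrin in human keratinocytes, at -0.44 in EKO and -0.71 in f/f.

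**Figure D5:**
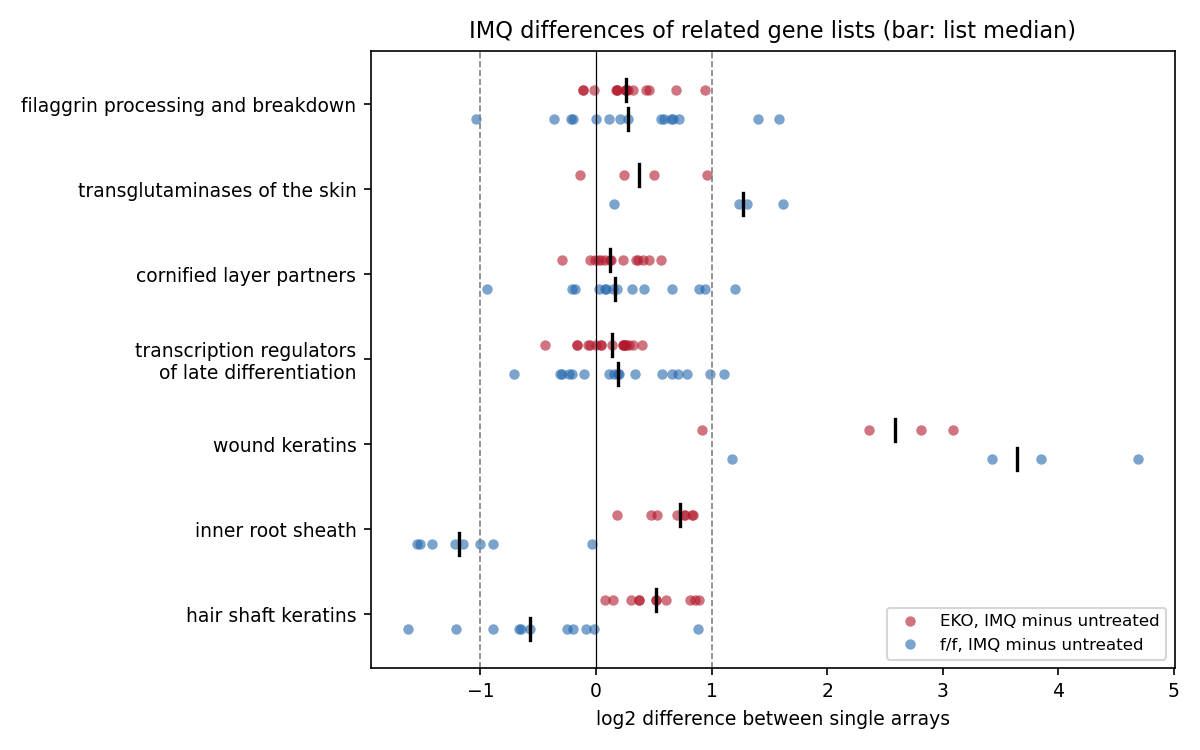
IMQ minus untreated (log2, horizontal axis) of each measured gene in 7 related lists, in EKO (red) and f/f (blue), with a bar at the list median and dashed lines at 2-fold. The medians of inner root sheath and hair shaft genes lie on opposite sides of 0 in EKO and f/f, with Krt84 (0.30 in EKO, 0.88 in f/f) on the same side in both, while wound keratins are higher in both. Krt84 reached the floor on the IMQ arrays only.

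The nearest measured genes on the chromosome did not move as a block. Of 9 genes within 10 annotated genes of the outermost members, Crnn included, 5 reached the floor in the EKO comparison and 6 in the f/f comparison. Of these, 4 were higher with IMQ in EKO (median 0.09, 1 past 2-fold) and 4 in f/f (median 0.20, 2 past 2-fold as higher and 1 as lower). The late cornified envelope gene Lce3e was higher with IMQ by 3.11 in EKO and 5.80 in f/f, though its untreated levels (6.27 in EKO, 4.36 in f/f) lay below the floor and these sizes are imprecise. Lce3f reached the floor on the f/f IMQ array alone. Crct1, between them and Crnn, was higher by 0.09 in EKO and 0.13 in f/f, and S100a11, next to Tchhl1, by 0.09 in EKO and 0.27 in f/f. Rptn, with IMQ differences of at least 2.79 in both genotypes under each scaling, lay between Hrnr and Tchh. The Hrnr differences were 0.29 in EKO and 0.55 in f/f, and those of Tchh were 1.06 in EKO and -1.30 in f/f.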

How the data were processed

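The file holds log2 levels per probe set, deposited by the authors after RMA (background correction, quantile normalization, probe summarisation), per the submitters' processing notes; version and annotation are not stated in the sources used here. Of 35556 probe sets, 21789 had 1 gene symbol and were used, 1621 had several and 12146 were not listed. Groups came from sample titles. Log2 differences of single arrays were computed for 5 comparisons with the floor and 2-fold threshold given above. Averaged effects used limma 3.58.1 (lmFit, eBayes, intensity trend) in R 4.3.3. On simulated data the fit recovered 42% of 2-fold, 96% of 4-fold, 88% of 8-fold and 90% of 16-fold changes. It made 8 false calls among 10446 unchanged genes. The simulated data held no genotype-by-IMQ difference, so they cannot show how the fit behaves on these arrays. Other steps used Python 3.11.15, numpy 2.4.6, pandas 2.3.3 and matplotlib 3.10.9. RMA equalises arrays, so a shift of most genes would be hidden. The number of arrays limits the precision. Named genes are all members, up to 4 leading genes per list plus any a sentence needs, the 5 genes nearest to each member whose range is at least 1, chromosomal neighbours (10 annotated genes per side) and Traf6. The nearest genes were sought among those at or above the floor on any array. Krt83 is listed as Krt87. T cell markers (4 measured) had medians of -0.37 (IMQ in EKO) and -0.29 (IMQ in f/f). For the 2 that reached the floor, Cd3e and Cd3g, the medians were -0.47 in EKO and -0.84 in f/f. The members, lists and motifs were chosen with earlier results of these data known. Alternatives were 3 other scalings, no floor, averaging each gene's probe sets, 1.5-fold, and other limma settings.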

Additional observations from a re-analysis of the deposited data

Results flagged for a closer look

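With 1 array per group, no array could be set against others of its group. The results below have IMQ differences of opposite sign in the genotypes, and the difference was not tested. The rule was applied to the members, Crnn and the gene lists without a size limit. The share of all genes with opposite signs was not counted, so the flag alone does not make a result unusual. Tchh was 1.06 higher with IMQ in EKO and stood at -1.30 in f/f. Tchhl1 stood at 0.45 in EKO and -0.69 in f/f, and Crnn at 0.34 in EKO and -1.11 in f/f. The inner root sheath keratins had a median of 0.73 in EKO and -1.18 in f/f, and the hair shaft keratins a median of 0.52 in EKO and -0.57 in f/f.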

How the results depend on the processing

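Of 75 member differences recomputed under 3 other scalings, 72 kept their side of the 2-fold threshold, 0 changed sign among those past it, and the largest shift was 0.12 (log2). Averaging probe sets cannot change the members, which have 1 each. The exceptions were Flg2 with IMQ in f/f after cyclic loess (-1.07) and quantile normalization (-1.08), and Tchh in untreated EKO against f/f after quantile normalization, which made 1 member past 2-fold there. The deposited values were already quantile normalized, so the other scalings had little room to change them. The 75 include Rptn without IMQ, which the floor kept from being counted. At 1.5-fold, the members counted became 4 for IMQ in f/f (main 2), 2 for EKO against f/f with IMQ (main 1), 2 without IMQ (main 0) and 4 for the difference of the IMQ differences (main 2). Over all genes, 1.5-fold against 2-fold gave 274 against 69 higher and 83 against 10 lower for IMQ in EKO, 1074 against 403 higher and 1005 against 277 lower for IMQ in f/f, 209 against 43 higher and 268 against 90 lower for EKO against f/f with IMQ, 66 against 7 higher and 108 against 33 lower without IMQ, and 389 against 113 higher and 493 against 126 lower for the difference of differences. In limma, 0 of 5 members passed under each of the 7 alternatives run, with adjusted p for Rptn and IMQ between 0.14 and 0.213, for Hrnr and IMQ between 0.14 and 0.213, and for Flg2 and IMQ between 0.167 and 0.238. No paired analysis was possible because each group has 1 array, and no replicate could be left out. Low signal limits Rptn in untreated skin and Crnn on 2 arrays, where levels approach background.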
